A study of Homo sapiens with 4 samples.

Results

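The 10 genes described here encode the subunits of the transcription factor AP-1 and 3 other immediate early proteins: FOS, FOSB, FOSL1 and FOSL2 of the FOS family, JUN, JUNB and JUND of the JUN family, and EGR1, IER2 and IER3. They were taken by symbol from the 33538 genes listed in each library, and all 10 were found. They were listed by name and not by a limit on a measured value, but earlier results of these data were known when the list was made. The UMIs (unique molecular identifiers, 1 per captured molecule) of each gene were summed over the kept cells of a library and divided by the total of those cells, giving CPM (UMIs of the gene in 1000000 UMIs).

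The cells were HCEC 1CT, a line of human colonic epithelial cells that carries TERT and CDK4 transgenes, grown in a medium with EGF and 2% serum and selected with puromycin after viral transduction. They had received an shRNA against APC (shAPC), of which the study used 1, or a scrambled shRNA (shScr), and were taken at day 3 or day 7 for droplet single-cell RNA sequencing of the 3′ ends of transcripts. Each of the 4 groups was 1 library, and values below are given in the order of day 3 and then day 7, with shScr before shAPC on each day. No difference below therefore has a replicate check, no test between groups was made, and every interval (95%) covers counting error only.

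The summed UMIs of the 1116, 788, 2600 and 1478 kept cells ranged from 28451455 to 39797418 per library, but the median cell of shScr day 7 had 1330 UMIs against 21030 to 49686 in the others. APC, the shRNA's target, was at 16.1 CPM with shScr and 5.52 with shAPC on day 3, and at 19.1 and 6.61 CPM on day 7. Of 8 colon epithelial markers, 5 (EPCAM, CDH1, KRT20, CDX2 and VIL1) were at 3 UMIs or fewer in every library, and all 8 mesenchymal markers were above 3 UMIs. The other 3 epithelial markers, the keratins KRT8, KRT18 and KRT19, were seen in every library, and the list summed to 20.5 and 32.3 CPM on day 3 and to 17.1 and 22.8 on day 7, against 8792 to 11334 CPM for the mesenchymal list. Of the kept cells, 8 to 29 per library had a barcode that was also kept in another library, 19 of them shared by shScr day 3 and shAPC day 3. No cell type in these libraries lacks the 10 genes, so the share of UMIs from free RNA could not be measured. With summed counts, fewer cells with a transcript and less of it per cell cannot be told apart, which is why shares of cells are given further on.

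AP-1 is a dimer of a JUN protein with a FOS protein or with another JUN protein, and it binds short DNA elements in the promoters and enhancers of genes for growth, migration and matrix turnover. The genes for its subunits are immediate early genes: serum, growth factors or stress signal through MAP kinases to factors already bound at their promoters, and transcription starts without new protein synthesis. Their transcripts are short-lived, so that in most cells FOS is seen for less than an hour after a stimulus, whereas JUND and FOSL2 are kept up for longer. In the intestine AP-1 meets the Wnt pathway, which APC restrains, since JUN can bind the TCF factors that β-catenin activates.

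The promoters of 8 of the 10 genes were found in RefSeq (GRCh38.p14), and the 250 bases before the transcription start were searched on both strands. Shown are the 3 genes with the highest shAPC/shScr ratios at day 3, EGR1, JUN and IER2, and FOS, the least expressed of the classical pair FOS and JUN. Capitals mark matches to the CArG box, the site of serum response factor, to TGACNTCA, an element bound by JUN and ATF proteins, to TGANTCA, the AP-1 element, and to TATAAA, the TATA box.
EGR1, chr5:138465229-138465478, plus strand: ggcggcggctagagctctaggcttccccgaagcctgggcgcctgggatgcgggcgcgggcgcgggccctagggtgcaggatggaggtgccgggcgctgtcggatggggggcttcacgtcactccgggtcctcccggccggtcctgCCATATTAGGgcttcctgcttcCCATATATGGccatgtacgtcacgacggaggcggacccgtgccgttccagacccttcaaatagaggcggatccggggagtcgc
JUN, chr1:58784048-58784297, minus strand: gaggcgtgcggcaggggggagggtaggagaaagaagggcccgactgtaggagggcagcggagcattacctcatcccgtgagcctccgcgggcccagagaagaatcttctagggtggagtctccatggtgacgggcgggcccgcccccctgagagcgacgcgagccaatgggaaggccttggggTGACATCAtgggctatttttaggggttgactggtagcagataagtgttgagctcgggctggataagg
IER2, chr19:13150161-13150410, plus strand: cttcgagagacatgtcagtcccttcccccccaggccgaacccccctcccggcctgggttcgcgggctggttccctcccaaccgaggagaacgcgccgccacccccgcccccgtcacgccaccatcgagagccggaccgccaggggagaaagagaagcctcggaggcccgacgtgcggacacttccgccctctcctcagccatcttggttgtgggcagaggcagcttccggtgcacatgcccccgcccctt
FOS, chr14:75278578-75278827, plus strand: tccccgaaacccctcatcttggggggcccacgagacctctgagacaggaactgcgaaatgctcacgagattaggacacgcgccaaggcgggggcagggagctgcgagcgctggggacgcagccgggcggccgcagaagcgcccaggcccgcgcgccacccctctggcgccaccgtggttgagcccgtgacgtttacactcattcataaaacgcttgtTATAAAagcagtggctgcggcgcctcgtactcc

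EGR1 held 2 CArG boxes, at positions -105 to -96 and -83 to -74 from the start, and was the single promoter of the 8 with one (12.5%, against 1.16% of 35116 promoters). JUN held TGACATCA at -67 to -60, and JUND held TGACGTCA at -200 to -193, so 2 of 8 had TGACNTCA against 6.87% of all promoters. TATAAA lay at -33 to -28 in FOS and within 3 bases of that place in FOSB and JUNB, 3 of 8 promoters against 10.7% of all. Neither TGANTCA, the EGR1 site GCGTGGGCG, the TCF sites CTTTGAA and CTTTGAT nor an NF-kB site was found in any of the 8, and the promoters of IER2 and FOSL2 had no match to any of the motifs. A match is a stretch of letters and not a measured site, and the lack of one says only that these letters are not in the window.

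Among the FOS family, FOSL1 and FOSL2, the 2 members that lack the strong activation domain of FOS and FOSB, made up nearly all of the transcripts in each library. FOSL1 (ENSG00000175592, chr11:65892049-65900573, minus strand, gene positions in hg38 throughout) stood at 49.4 CPM with shScr and 74.6 with shAPC on day 3, and at 56.0 and 38.9 on day 7. It was highest in shAPC at day 3 and lowest in shAPC at day 7, and no 2 of the 4 Poisson intervals overlapped. On day 3 the shAPC/shScr log2 ratio of FOSL1 was 0.59 (0.51 to 0.68), and on day 7 it was -0.52 (-0.63 to -0.42). FOSL2 (ENSG00000075426, chr2:28392448-28417317, plus strand) stood at 32.7 CPM with shScr and 55.1 with shAPC on day 3, and at 44.7 and 41.0 on day 7. The ratio of FOSL2, again as log2 of shAPC over shScr, came to 0.75 (0.65 to 0.86) on day 3 and to -0.13 (-0.24 to -0.01) on day 7, where the CPM intervals of the pair overlapped.

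FOS and FOSB, the rapid and transient members of the family, were near the bottom of the measured range. FOS (ENSG00000170345, chr14:75278826-75282230, plus strand) had 135 UMIs with shScr (3.39 CPM) and 149 with shAPC (4.26) on day 3, and 52 (1.67) and 50 (1.76) on day 7. The FOS ratio was 0.33 on day 3, with an interval of -0.02 to 0.68, and 0.08 on day 7, with one of -0.51 to 0.67, so that a difference between the shRNAs was not detectable at this depth. FOSB (ENSG00000125740, chr19:45467995-45475179, plus strand) had 126, 92, 6 and 26 UMIs in the same order, or 3.17, 2.63, 0.192 and 0.914 CPM. It was lowest in shScr day 7, where its 6 UMIs came from 6 different cells, and the shAPC/shScr fold at day 7 was 4.76 with a wide interval of 1.91 to 14.1. At day 3 the FOSB ratio was -0.27 (-0.67 to 0.13) on the log2 scale.

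In the JUN family, JUN had the most transcripts in every library and the widest difference between the shRNAs at day 3, and JUND the widest at day 7. JUN (ENSG00000177606, chr1:58776845-58784048, minus strand), the main activating partner of FOS proteins, stood at 69.6 CPM with shScr and 152.9 with shAPC on day 3, and at 76.4 and 71.2 on day 7. The shAPC library of day 3 was high and the other 3 lay close together. For JUN the log2 ratio on day 3 was 1.14 (1.07 to 1.20), against -0.10 (-0.19 to -0.02) on day 7. JUNB (ENSG00000171223, chr19:12791486-12793315, plus strand), which restrains JUN at many promoters, was also highest in shAPC day 3, with smaller steps, at 35.2, 60.04, 39.1 and 40.9 CPM. JUNB gave 0.77 (0.67 to 0.87) on day 3 and 0.07 (-0.05 to 0.18) on day 7. JUND (ENSG00000130522, chr19:18279694-18281622, minus strand), which is widely expressed and linked to slow proliferation, went another way, at 44.1, 52.2, 36.0 and 51.3 CPM. It was higher in shAPC at both days, with log2 ratios of 0.24 (0.15 to 0.34) at day 3 and 0.51 (0.40 to 0.62) at day 7, and it was the sole member of the 10 whose ratio lay above 0.5 at day 7 with more than 100 UMIs in each library.

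EGR1 (ENSG00000120738, chr5:138465479-138469303, plus strand), a zinc finger factor induced through serum response factor and ERK, stood at 35.7 CPM with shScr and 86.7 with shAPC on day 3, and at 55.6 and 62.2 on day 7. The EGR1 ratio on day 3 was 1.28 (1.19 to 1.37), and that on day 7 was 0.16 (0.07 to 0.26). IER2 (ENSG00000160888, chr19:13150411-13154911, plus strand), a nuclear immediate early protein, stood at 20.4, 51.5, 32.6 and 32.9 CPM, with ratios of 1.33 (1.21 to 1.46) and 0.02 (-0.11 to 0.15). For both genes shScr day 3 was the lowest library and shAPC day 3 the highest, with the libraries of day 7 in between. IER3 (ENSG00000137331, chr6:30743199-30744548, minus strand), a target of NF-kB and ERK that modulates cell death, had the most UMIs of the 10 genes in every library. It stood at 100.1, 202.8, 122.1 and 115.4 CPM, with ratios of 1.02 (0.96 to 1.08) at day 3 and -0.08 (-0.15 to -0.01) at day 7.

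UMIs of 3′ ends count molecules and do not grow with transcript length, so the order of the genes can be read from the CPM within a library. IER3 and JUN held the first and second place in all 4 libraries, IER2 the eighth, FOS the ninth and FOSB the tenth. The genes between them changed places: EGR1 held place 5 in shScr day 3 and place 3 in both shAPC libraries, and FOSL1 held place 3 in both shScr libraries and place 7 in shAPC day 7. In shAPC day 3, JUND (interval 49.8 to 54.6 CPM) could not be told from IER2 (49.1 to 53.9) or FOSL2 (52.7 to 57.7) by counting error, and in shScr day 3 the same held for EGR1 and JUNB and for FOS and FOSB. The places of FOSL1 at day 7 were also ties. It (53.4 to 58.7) overlapped EGR1 (53.0 to 58.2) in shScr, and (36.7 to 41.3) FOSL2 (38.7 to 43.4) and JUNB (38.6 to 43.4) in shAPC. Further neighbours overlapped in this way. Among all genes, IER3 ranked 518 in shAPC day 3 and 960 in shScr day 3, while FOS ranked between 9800 and 11364 in the 4 libraries.

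**Figure D1:**
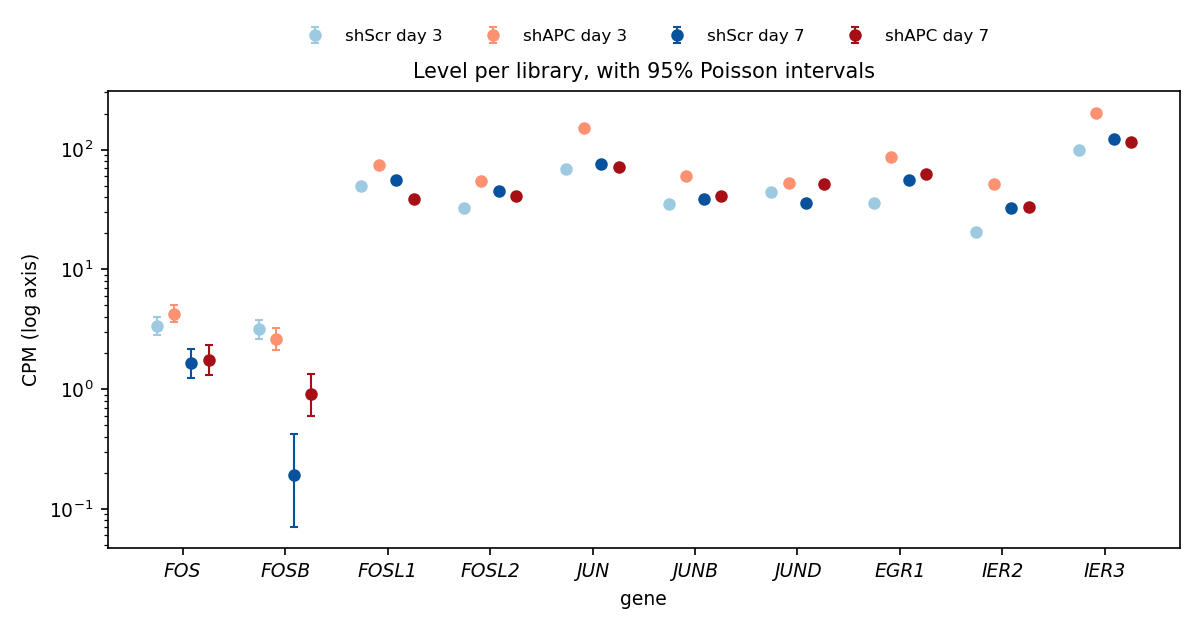
Level of each gene in each library in CPM (log axis), with exact Poisson 95% intervals where they are wider than the point. The shAPC day 3 library is the highest of the 4 for 8 genes that stand above 20 CPM there, and FOS and FOSB lie below 5 CPM throughout.

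The first question the design poses is whether these genes differed with the shRNA against APC at day 3. Higher in shAPC by 2-fold or more were 4 of the 10, IER2 (2.52-fold), EGR1 (2.43-fold), JUN (2.20-fold) and IER3 (2.03-fold), and none was lower by that much. Of the 5175 genes in the files that reached 20 CPM in either library, 3.86% were past 2-fold higher and 0.425% lower, on the log2 scale of CPM with a pseudocount of 1. Of the 10 genes, 8 passed that minimum, and their median log2 ratio was 0.88, within a range of 0.24 to 1.29, against a median of 0.28 over all genes.

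The median of all genes lay above 0 at day 3, as did 79.2% of the genes, and the number past 2-fold changed with the scaling. Relative to the median of all genes the ratios were 1.02 for IER2, 0.98 for EGR1, 0.85 for JUN and 0.74 for IER3, which left 1 gene past 2-fold, against 2.13% of all genes on that scale. FOSL1, FOSL2 and JUNB stayed above the median, at 0.31, 0.46 and 0.48, and JUND lay at it, at -0.04. With TMM factors the log2 ratios of IER2, EGR1, JUN and IER3 were 0.95, 0.90, 0.76 and 0.64, and with DESeq2 size factors 0.97, 0.92, 0.77 and 0.66, so that 0 of the 10 were past 2-fold under either, against 1.71% of all genes higher with TMM. The direction of JUND turned with the scaling at day 3, to -0.14 (TMM) and -0.12 (DESeq2), as did that of FOS, to -0.05 and -0.03. JUN, EGR1, IER2 and IER3 were higher in shAPC under all 11 alternatives tried, with lowest values of 0.76, 0.90, 0.95 and 0.64. Without the cells whose barcode was shared between libraries, JUN was at 1.02 and the other 3 at 1.21, 1.27 and 1.01.

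At day 7 the same comparison gave 1 gene past 2-fold, FOSB, which rests on 26 and 6 UMIs and was at 0.68 with the pseudocount, and none among the 8 genes of at least 20 CPM, against 0.787% of 4573 genes higher and 1.77% lower. The median of those 8 was -0.03, against -0.10 over all genes. JUND was highest, above 96.0% of all genes, and FOSL1 lowest, above 10.3%. The log2 ratio at day 7 minus that at day 3 was -1.24 for JUN, -1.12 for EGR1, -1.32 for IER2 and -1.10 for IER3, with counting intervals from -1.35 to -1.13, -1.25 to -0.99, -1.49 to -1.14 and -1.19 to -1.01. With TMM these differences were -0.87, -0.75, -0.95 and -0.73. JUND moved the other way, by 0.27 (0.12 to 0.41).

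The contrasts over time share their libraries with those between the shRNAs, and their values are set side by side. In shScr, EGR1 and IER2 were higher at day 7 than at day 3, with log2 ratios of 0.64 (0.54 to 0.74) and 0.67 (0.54 to 0.81), and FOSL2 and IER3 by 0.45 and 0.29. JUN, JUNB and FOSL1 differed by 0.13, 0.15 and 0.18, and JUND by -0.29. None of the 8 was past 2-fold, against 0.329% of 4556 genes higher and 0.79% lower, while FOS (-1.03) and FOSB (-4.04), both under the minimum, were lower by more than 2-fold without the pseudocount and at -0.72 and -1.81 with it. In shAPC, all 10 genes had a ratio below 0 from day 3 to day 7, from -0.02 for JUND to -1.53 for FOSB, and JUND turned to 0.28 with TMM. Of the 8 genes that reached 20 CPM, JUN (-1.10) was past 2-fold, and FOS (-1.28) and FOSB, under the minimum, were past it by the ratio without a pseudocount but at -0.93 and -0.92 with it. Of 5176 genes, 5.78% were past 2-fold lower in that contrast, 0.058% higher, and the median was -0.34, against a median of -0.58 for the 8. Relative to all genes JUN was at -0.76, FOSL1 at -0.59, IER3 at -0.47 and JUND at 0.31.

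**Figure D2:**
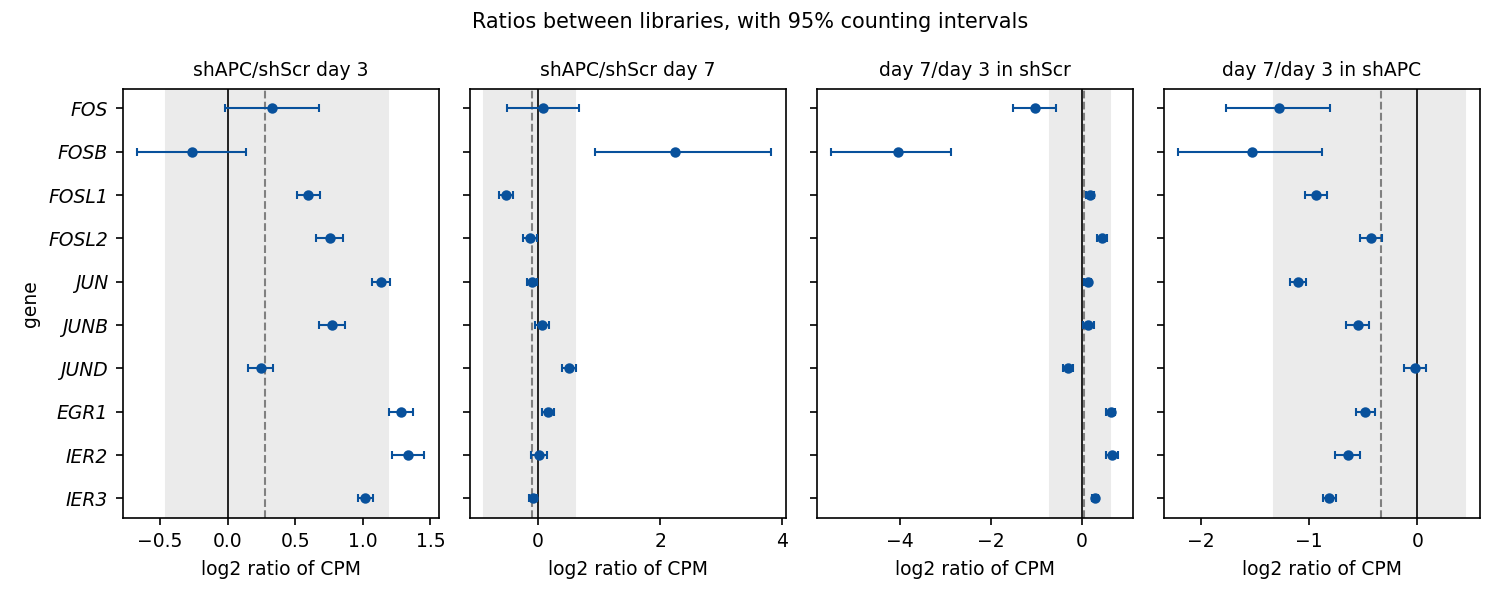
Log2 ratio of CPM for each gene in the 4 contrasts, with exact conditional 95% intervals for counting error; the dashed line is the median and the grey band the central 95% of all genes that reached 20 CPM in either library. At day 3 EGR1 and IER2 lie beyond the band, at 1.28 and 1.33, and at day 7 all genes other than FOSB lie within it.

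The share of cells with a UMI was compared after each cell had been thinned to 2000 UMIs, which left out 217, 115, 1402 and 391 shallower cells. At that depth EGR1 was seen in 5.12% of the cells of shScr day 3 (exact binomial interval 3.77 to 6.77) and in 10.1% of those of shAPC day 3 (7.93 to 12.6). IER3 was seen in 14.6% (12.3 to 17.05) and 26.0% (22.7 to 29.5), JUN in 12.7% (10.6 to 15.03) and 17.8% (15.01 to 20.9), and IER2 in 3.67% (2.54 to 5.12) and 7.88% (5.95 to 10.2). For EGR1, IER2 and IER3 the intervals did not overlap at day 3, and those of JUN barely overlapped. At day 7, FOSL1 was seen in 10.2% (8.53 to 12.04) with shScr and 5.70% (4.40 to 7.25) with shAPC, and JUND in 5.34% (4.14 to 6.77) and 9.94% (8.22 to 11.9). Without thinning, EGR1 was seen in 29.7% and 44.5% of the cells at day 3, and JUND in 22.5% and 44.99% at day 7, where the depth of the libraries differed most. In cells thinned to 2000 UMIs the share was higher in shAPC for 9 of the 10 genes at day 3 and for 6 at day 7, and the latter count was 4 at 1000 UMIs, 8 at 5000 and 10 unthinned. At 2000 UMIs, FOSB was seen in 3 cells of each library at day 3, and FOS in 1 cell with shScr and 3 with shAPC at day 7. No such count over all genes is given for shares of cells. By CPM, which is another measure, 79.2% of all genes were above 0 at day 3 and 37.7% at day 7.

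**Figure D3:**
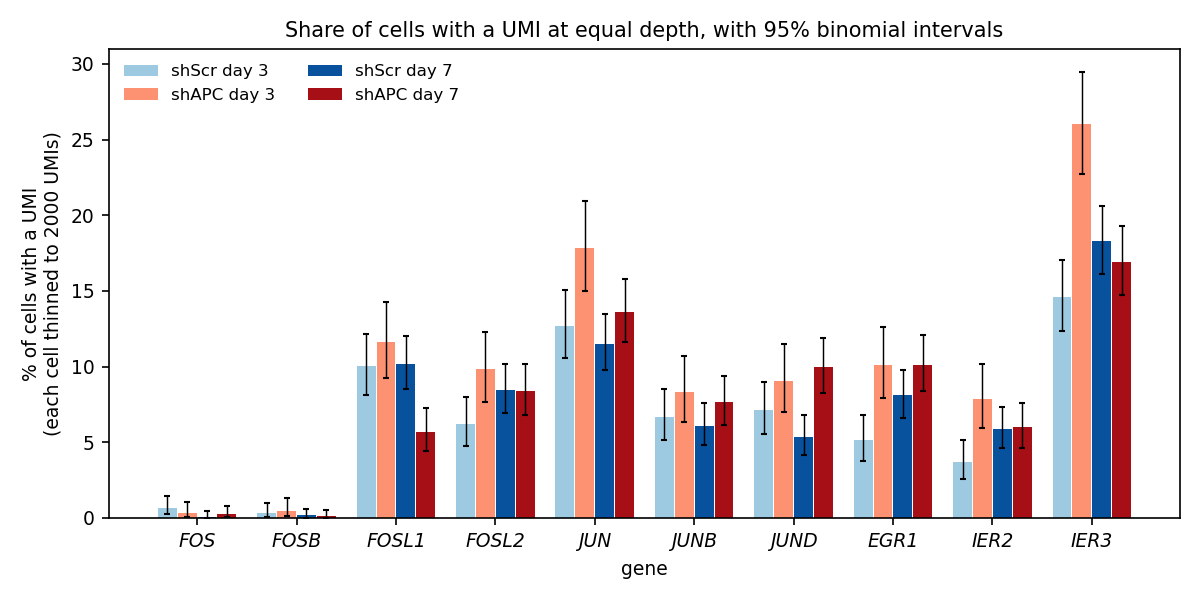
Percentage of cells with at least 1 UMI of each gene after every cell was thinned to 2000 UMIs, per library, with exact binomial 95% intervals. IER3 reached 26.0% in shAPC day 3 against 14.6% in shScr day 3, and FOS and FOSB stayed below 1% in all 4 libraries.

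The transcripts were not spread evenly over the cells. In cells thinned to 5000 UMIs, counts drawn at an equal level in each cell would have a variance over mean of 1. The value for EGR1 was 4.65 in shAPC day 3 and 1.72 in shScr day 3. On day 7 it was 1.81 with shScr and 1.46 with shAPC. Of the 231 thinned EGR1 UMIs of shAPC day 3, 22 lay in the highest cell. The value without that cell was not computed. JUND and FOSL1 had values of 1.03 to 1.15 and 1.14 to 1.19. Their thinned means were at most 0.38 UMIs per cell, and at such means a value near 1 does not show an even level. Single cells carried much of the low counts: of the 149 FOS UMIs of shAPC day 3, 50 (33.6%) came from 1 cell of 65061 UMIs, which was also the highest for JUNB, with 108 UMIs, and held 105 UMIs of ATF3. Another cell of that library, with 104391 UMIs, was the highest for EGR1 (245 UMIs), IER2 (126) and IER3 (308), and held no UMI of JUND. Its EGR1 level was 2347 CPM and its share of all EGR1 UMIs 8.08%. In shScr day 7, 1 cell of 86653 UMIs was likewise the highest for JUNB, EGR1 and IER3, and had as many JUN UMIs (66) as any other. Without the single cell highest for each gene in each library, the day 3 log2 ratio of IER3 was 0.98, so that 3 of the 10 genes were past 2-fold, and that of FOS turned to -0.23 (-0.62 to 0.16). A count over all genes is not given for that setting.

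ATF3, a stress-induced partner of JUN proteins, was itself at 1.03 CPM with shScr and 44.7 with shAPC on day 3, and at 15.4 and 3.37 on day 7. Among cells of at least 2000 UMIs, 1, 30, 12 and 3 cells in that order had ATF3 at 200 CPM or more. In shAPC day 3 these 30 cells (4.46%) held 20.0% of the UMIs of IER2, 18.1% of FOSL2 and 17.3% of JUN, against 6.40% of all UMIs. The level of JUN was 413 CPM in them and 135 in the other 643 cells and that of EGR1 182 and 80.3. The log2 difference of IER2 was 1.87 (1.70 to 2.04). FOS stood at 24.2 against 2.88 CPM, but 50 of its 54 UMIs in the ATF3 cells came from the 1 cell named above, and without that cell it stood at 1.85 against 2.88, a log2 difference of -0.64 (-2.55 to 0.76). Without the highest cell of each gene, JUN stayed at 313 against 135 CPM and JUNB, at 122 against 55.7 with it, came to 75.3 against 55.7. JUND (35.9 against 53.4 CPM) and IER3 (177 against 205) were lower in the ATF3 cells, and the interval of FOSL1 just reached 0 (log2 0.22, -0.00025 to 0.43). In shScr day 7 the 12 such cells had 522 CPM of JUN against 70.2, and there IER3 and JUND were higher in them too, at 327 against 120 and 57.7 against 36.3 CPM. IER2 was at 98.7 against 31.5 CPM in that library and at 36.5 against 31.5 without its highest cell. The result for EGR1 depended on the limit set for ATF3: in the 10 cells of shAPC day 3 with ATF3 at 500 CPM or more it was lower than in the others, at 62.0 against 87.3 CPM, and in the 7 such cells of shScr day 7 it stood at 37.3 against 56.2 CPM on 9 UMIs. JUN stayed higher at that limit, at 334 against 149 CPM and 352 against 74.2. Without the ATF3 cells of every library, the day 3 shAPC/shScr log2 ratio was 1.17 for EGR1, 1.11 for IER2, 1.03 for IER3 and 0.96 for JUN, which left 3 genes past 2-fold, and that of FOSL2 was 0.56. The number of all genes past 2-fold in either direction also fell, from 222 (4.29%) to 132 without the ATF3 cells.

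**Figure D4:**
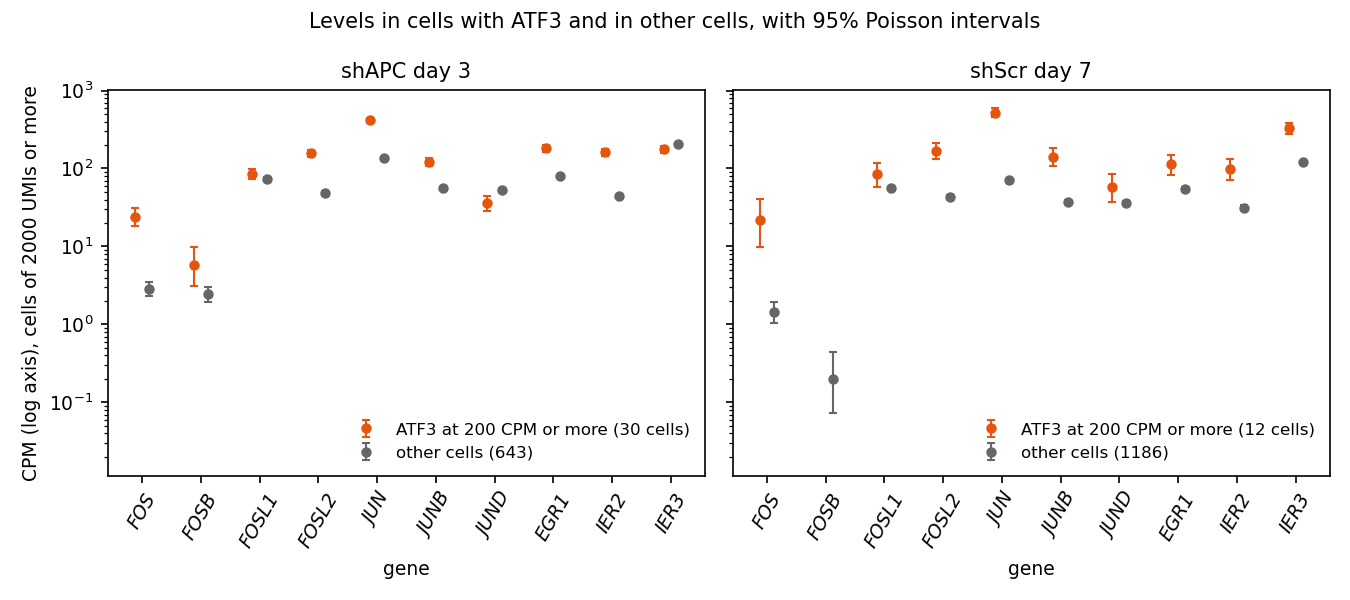
Level of each gene in CPM (log axis) in cells with ATF3 at 200 CPM or more and in the other cells of at least 2000 UMIs, in shAPC day 3 and shScr day 7, with exact Poisson 95% intervals; no point is drawn for 0 UMIs, and 1 cell holds 50 of the 54 FOS UMIs of the ATF3 cells in shAPC day 3. JUN stands at 413 against 135 CPM in shAPC day 3 and at 522 against 70.2 in shScr day 7, while IER3 is lower in the ATF3 cells of the first library and higher in those of the second.

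RNA quality moved with some of these ratios. In the barcodes that the mitochondrial limit had removed (346, 245, 1052 and 1551 barcodes), the day 3 shAPC/shScr log2 ratio was 0.91 (0.72 to 1.09) for JUN and 0.71 (0.55 to 0.87) for IER3, but 0.46 (0.14 to 0.80) for IER2 and 0.24 (-0.08 to 0.56) for EGR1. At day 7 the removed barcodes gave 0.73 (0.60 to 0.86) for JUND, 0.52 (0.39 to 0.65) for EGR1, 0.40 (0.30 to 0.49) for IER3 and -0.33 (-0.50 to -0.16) for FOSL1. JUND, FOSL1 and EGR1 thus had the same direction in kept and removed barcodes at day 7. IER3, JUN (0.22 in the removed) and FOSL2 (0.17, 0.03 to 0.31) did not. FOS also turned, to -0.26 in the removed, with an interval of -0.83 to 0.33. With all deposited barcodes the day 7 ratio of JUND was 0.72. What the mitochondrial share contributes to these values was not tested.

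Across single cells of at least 5000 UMIs, the 10 genes went together most in shAPC day 3. The median Pearson r of the 45 pairs, on log2 values per 10000 UMIs, was 0.28 over the 616 cells of shAPC day 3, and 31 pairs were above 0.2. In the 809 cells of shScr day 3 it was 0.09 with 9 such pairs, in the 1036 of shScr day 7 it was 0.11 with 11, and in the 994 of shAPC day 7 it was 0.07 with 5. The highest pair was EGR1 and IER2 in shAPC day 3, at 0.51, and EGR1 and IER3 were at 0.47 there. Without the ATF3 cells the median in that library was 0.24, with 27 pairs above 0.2. The r of each gene with the depth of the cell (log2 UMIs) ran from 0.07 (FOS) to 0.26 (JUN) in shAPC day 3. In shScr day 3 it ran from -0.05 (FOS) to 0.23 (JUND). What depth adds to the r of the pairs was not tested. The cells of a library share its preparation, and in sparse counts low values of r carry little, so these are descriptions with no test.

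**Figure D5:**
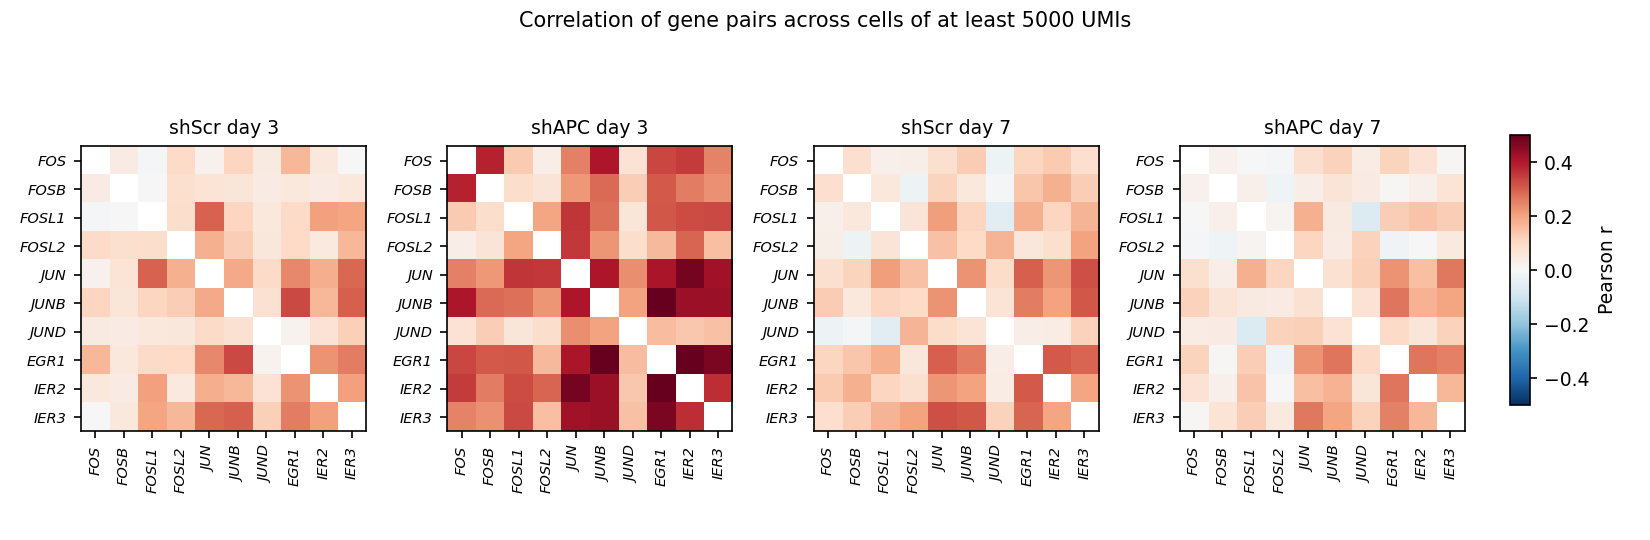
Pearson r of each pair of the 10 genes across cells of at least 5000 UMIs within each library (colour scale from -0.5 to 0.5, on log2 values per 10000 UMIs). JUN, JUNB, EGR1, IER2 and IER3 form the darkest block in shAPC day 3, where the median of the 45 pairs is 0.28 against 0.07 to 0.11 in the other libraries.

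For the 5 members seen in at least 50% of these cells in every library, the genes most like them were those with the highest value of their smallest r over the 4 libraries, out of 9194 genes. IER3 was closest to CXCL8, with r of 0.36 to 0.51, then to CXCL1 and TNFAIP3, all known targets of NF-kB. JUN was closest to IER3, with r of 0.26 to 0.42, and KLF6 was also among its closest genes. JUND was closest to FN1 (0.32 to 0.40), MFGE8 and GREM1, which are secreted or matrix genes, and FOSL1 to UBE2S (0.28 to 0.38), HNRNPAB and DEK, which are high in dividing cells. For FOSL2 the values were lower, 0.20 to 0.41 with FRMD6, followed by AMOTL2.

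Lists of related genes were then set beside the 10. Of 12 other bZIP partners of AP-1, 3 passed 20 CPM at day 3: ATF3, MAFF, a small MAF protein, at 11.5 CPM in shScr and 29.9 in shAPC, and MAFG at 23.9 and 34.9. The minimum could be met in either library, here as over all genes, and ATF3 and MAFF met it in shAPC alone. So did BTG2, KLF4 and PLAU at day 3, and BTG2 and MMP3 at day 7. The counts past 2-fold given for the lists depend in part on such genes and are descriptions only. Of 28 other immediate early genes 16 passed, and 6 of them were past 2-fold higher in shAPC at day 3 by total UMIs, against 3.86% of all genes, with a median log2 ratio of 0.58 against 0.28. With TMM it was 4 of 14, against 1.71% of all genes, with a median of 0.20 against -0.13. These included BTG2, an antiproliferative p53 target, at 7.31 CPM in shScr and 31.7 in shAPC, KLF10, an early TGF-β response gene, at 23.7 and 83.1, and PHLDA1 at 76.0 and 204, while KLF4 reached 26.9 in shAPC with a log2 ratio of 1.48. The most abundant of the list did not follow, since DUSP1, the phosphatase that switches off MAP kinases, stood at 203 and 235 CPM and CYR61, a YAP target, at 202 and 192. At day 7, 1 of 13 was past 2-fold higher, BTG2 at 10.6 and 22.7 CPM, against 0.787% of all genes. The median was -0.15, against -0.10 over all genes. In shAPC from day 3 to day 7, 3 of 16 were past 2-fold lower, CSRNP1, KLF4 and KLF10, against 5.78% of all genes. The median of the 16 was -0.58, against -0.34 over all genes.

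Upstream of AP-1, 9 of 18 MAP kinase and promoter factor genes passed at day 3, with a median of 0.32. That is the median of all genes within 0.05. With TMM the list was at -0.14, against -0.13 over all genes. MAP2K1, the kinase MEK1 that activates ERK, was the exception and was lower in shAPC at both days, at 34.2 CPM in shScr and 13.6 in shAPC at day 3 and 36.1 and 11.1 at day 7. Its log2 ratios were -1.27 and -1.62 with the pseudocount, where 0.425% of all genes at day 3 and 1.77% at day 7 were past 2-fold lower. MAP2K2, which encodes the related MEK2, stood at 142 and 123 CPM at day 3 and 137 and 121 at day 7. Of 17 textbook AP-1 targets, 8 passed at day 3 with a median of 0.41, against 0.28 over all genes. PLAU, the urokinase protease, was the 1 target past 2-fold higher, against 3.86% of all genes, at 18.6 CPM in shScr and 77.6 in shAPC. PLAU was at 12.2 and 16.0 CPM at day 7, when MMP3, the protease stromelysin, was the 1 target of 7 past 2-fold, at 13.2 and 34.9 CPM. Past 2-fold higher at day 7 were 0.787% of all genes. TIMP1 and CCND1, among the most abundant of the list, were within 0.5 of 0 on the log2 scale in both shAPC/shScr contrasts.

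The last lists, of ERK feedback genes and of heat shock and handling genes, were drawn up for growth factor signalling and for handling, and neither was tested as a cause. Of 8 ERK feedback genes 5 passed, with 0 past 2-fold and medians of 0.30 at day 3, which became -0.07 under TMM, and -0.47 at day 7. DUSP5, a phosphatase of nuclear ERK, stood at 36.7 CPM with shScr and 39.4 with shAPC on day 3, and at 45.8 and 23.8 on day 7. SPRY2 and SPRY4, inhibitors of receptor signalling, were highest in shAPC day 3, at 37.1 and 31.0 CPM, and lowest in shAPC day 7, at 23.4 and 17.6. Of 12 heat shock and handling genes 10 passed, with 0 past 2-fold in any of the 4 contrasts. Of all genes, 4.29% and 2.56% were past 2-fold in either direction between the shRNAs at day 3 and day 7. Over time it was 1.12% in shScr and 5.83% in shAPC. A count of 0 among 5 or 10 genes therefore says little. The day 3 median of the heat shock and handling genes, 0.27, was within 0.01 of that of all genes, and it turned to -0.11 with TMM. The median of all genes with TMM was -0.13 at day 3. HSPB1 stood at 761 and 802 CPM and HSPA8 at 544 and 516 at day 3, in shScr and shAPC.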

How the data were processed

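Droplet scRNA-seq was done on 4 libraries of HCEC 1CT cells, grouped by the labels into shScr and shAPC at day 3 and day 7. The authors aligned the reads to hg38 with Cell Ranger and deposited raw UMI counts per gene and barcode. Per the file headers the matrices came from version 3.0.2 for shScr and 3.0.0 for shAPC, so the version and the shRNA cannot be told apart. The sources differ on the kit (v2 in the labels, V3 in the methods) and on the virus (retroviral or lentiviral). The study's ComBat correction and imputation were not applied.

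Barcodes with at least 200 genes, 500 UMIs and under 5% mitochondrial UMIs were kept. UMIs were summed per library and scaled to CPM, with exact Poisson intervals, and ratios had exact conditional binomial (Clopper-Pearson) intervals at 95%, computed in Python 3.11.15 with scipy 1.17.1. Totals of 28451455 to 39797418 UMIs per library set the counting error of each value, and 3 UMIs served as the limit for calling a gene seen. With 1 library per group, past 2-fold (log2 of CPM + 1, 20 CPM or more in either library) replaces a test. Shares of cells were taken after thinning each cell to 2000 UMIs. Doublets were not called, and leaving out the 5% of cells with the most UMIs was an alternative. TMM factors (edgeR 4.0.16) and DESeq2 1.42.0 size factors were alternatives for scaling only. The ratio procedure was tested on simulated Poisson counts per library, with no spread between cells. That is the model the intervals assume, so the test does not show how well they cover these data.

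The 10 genes and all lists were chosen with earlier results of these data known. Named from each list were the 3 most abundant genes and up to 4 genes per contrast with the largest ratio past 2-fold. KLF6, CXCL8 and the other genes like a member were named by the rule on r given with them. Some genes that these rules name are not reported here. Marker lists for blood and endothelial cells were also counted, and 3 or 4 of 5 and 2 or 3 of 3 of their genes were at 3 UMIs or fewer.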

Additional observations from a re-analysis of the deposited data

Results flagged for a closer look

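For 4 genes the shAPC/shScr ratio lay above 0 at day 3 and below 0 at day 7, with counting intervals that left out 0 on both days. The difference, day 7 minus day 3 on the log2 scale, was -1.12 for FOSL1, -0.88 for FOSL2, -1.24 for JUN and -1.10 for IER3. With 1 library per group these differences were not tested. With TMM they were -0.75, -0.51, -0.87 and -0.73. The median of all genes at day 7 was -0.10, with the pseudocount. Relative to it FOSL1 lay at -0.42, FOSL2 at -0.03, JUN at -0.005 and IER3 at 0.02. The day 7 ratio of FOSL1 kept its sign under all 11 alternatives and lay between -0.66 and -0.46, whereas those of FOSL2, JUN and IER3 kept theirs under 8 of 11 and reached 0.13, 0.15 and 0.10 when CPM was averaged over cells.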

How the results depend on the processing

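With 1 library per group, no value has an error between cultures, and Cell Ranger version, shRNA and library cannot be separated. Intervals cover counting error only. Depth limits FOS and FOSB, which had 6 to 149 UMIs per library, and the median cell of shScr day 7 was shallow. No paired analysis was possible because each group held 1 library and no replicate numbers were shared. A fit of the shRNA with the day as a block, which takes the difference between the days as its error, was not run.

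EGR1, higher by over 2-fold in cells with ATF3 at 200 CPM or more, turned at 500 CPM, from 1.18 to -0.49 in shAPC day 3 and from 1.03 to -0.59 in shScr day 7. FOS in the ATF3 cells of shAPC day 3 turned from 3.07 to -0.64 without its highest cell. No gene's ratio past 2-fold between libraries turned its direction under the alternatives tried. The number of the 10 genes past 2-fold higher in shAPC at day 3 went from 4 to 0 under both TMM and DESeq2 size factors, and was 3 or 4 otherwise. Their day 3 median went from 0.88 to 0.51 with TMM, and their shAPC day 7/day 3 median from -0.58 to -0.95 with a minimum of 100 CPM. The number past 2-fold lower from day 3 to day 7 fell from 2 to 1 in shScr with all deposited barcodes, with a mitochondrial limit of 10% and with cells of at least 2000 UMIs. In shAPC it fell from 3 to 1 with TMM, with DESeq2 size factors, for the mean over cells and without the ATF3 cells. Without thinning, the share of cells with a UMI was higher in shAPC at day 7 for 10 genes in place of 6.

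All genes past 2-fold at day 3 numbered 222, and 144 with DESeq2 size factors, 127 without the 5% of cells with the most UMIs, 132 without the ATF3 cells, 42 with a minimum of 100 CPM and 528 with no minimum. TMM gave 150, split into 83 higher and 67 lower against 200 and 22 by total UMIs. At day 7 they numbered 117, and 258 for the mean over cells, 34 with the minimum of 100 CPM and 299 with none. In shScr over time they numbered 51, and 173, 20 and 115 in the same order. In shAPC over time they numbered 302, and 154 with TMM, 154 with DESeq2 size factors, 198 without the 5% of cells with the most UMIs, 69 with the minimum of 100 CPM and 603 with none.

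At day 3 the median of the ERK feedback genes went from 0.30 to -0.065 under TMM and -0.049 under DESeq2 size factors, and that of the heat shock genes from 0.27 to -0.11 and -0.090. In shAPC over time the ERK feedback median went from -0.64 to -0.35 under both TMM and DESeq2 size factors, -0.48 without mitochondrial and ribosomal genes in the totals, -0.81 with all deposited barcodes and -0.83 with the limit of 10%. The median of the upstream kinase and factor list went from -0.30 to -0.62 for the mean over cells and to -0.022 with the minimum of 100 CPM. TMM and DESeq2 size factors scale all genes of a library by 1 factor. With TMM the median of all genes went from 0.28 to -0.13 at day 3 and from -0.34 to -0.02 in shAPC over time. The cause of the other shifts was not tested. The other 445 values of this kind stayed within 1.5 times a count or within 1 SD of a list. Leaving out the ATF3 cells, the cells with shared barcodes or the highest cell of each gene was chosen after seeing the data. At 500 CPM of ATF3, shScr day 3 and shAPC day 7 had no cells and gave no value. List medians resting on fewer than 3 genes were not recomputed.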
